A study of Homo sapiens with 6 samples.

Results

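The genes described here are 10 enzymes and inhibitors that act on the extracellular matrix. They are the matrix metalloproteinases MMP1, MMP2, MMP14 and MMP15, the tissue inhibitors TIMP1, TIMP2 and TIMP3, the disintegrin metalloproteinases ADAM12 and ADAMTS1, and the serine peptidase FAP. They were chosen by gene name, with earlier results of these data known. All 10 were found among the 38170 features of the deposited table. All 10 also had enough counts to be tested, among 19620 features that did. RNA was sequenced from A549, a human lung adenocarcinoma cell line grown in DMEM with fetal bovine serum, in 3 libraries of an empty vector line and 3 libraries of a line overexpressing the long non-coding RNA LOC401312. The overexpression used piggyBac, in which a transposase pastes a cargo into the genome. Nothing read here says whether each line was a pool or a single clone, which promoter drove the transcript or whether the libraries are separate cultures, and p-values reflect spread among these libraries only, and that spread may be technical. For LOC401312 replicates 2 and 3 the genotype field names LOC401313 and LOC401314, against their titles, which were followed for grouping.

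Library totals ran from 60971105 to 73994619 counts. The STEAP1B entry, which holds the LOC401312 transcript, had 9 to 23 counts in the vector libraries and 90297 to 94628 in the LOC401312 libraries, so all 6 libraries matched their titles. Keratins KRT8 and KRT18 and the A549-typical enzymes ALDH1A1 and AKR1B10 were abundant in both groups (ALDH1A1 4430 ± 91.5 and 4090 ± 23.3 CPM, SD, n = 3 each), whereas the alveolar genes SFTPC and NKX2-1 were near 0 (at most 0.375 CPM in any library). CPM is the count scaled to the same library total, with TMM scaling. Of 19620 features tested, 8.72% passed an adjusted p of 0.05 between the groups, 4.13% higher and 4.58% lower in LOC401312 (811 and 899 features). With limma on log2(FPKM + 0.1) the split was 1639 higher and 308 lower. Of 9 A549 and airway markers tested of the 10 listed, 55.6% passed an adjusted p of 0.05 by edgeR. KRT19, CDH1 and NAPSA rose, and AKR1B10 and ALDH1A1 fell. NAPSA, another alveolar gene, was at 1.08 ± 0.0985 CPM in vector and 2.19 ± 0.18 CPM in LOC401312 (SD, n = 3 each). LOC401312 replicates 2 and 3 stood apart by placental transcripts. The summed level of 12 placental markers, leaving out PAPPA, which every library expressed, was 1.08, 2.21 and 1.40 CPM in the vector libraries, 1.93 CPM in LOC401312 replicate 1, and 113 and 98.9 CPM in replicates 2 and 3. Vector replicate 1 stood apart by stromal transcripts: periostin, POSTN, was at 9.12 CPM there and at 0.0567 to 0.439 CPM in the other 5 libraries. It also held the leukocyte transcript PTPRC, at 3.45 CPM against 0 to 0.117 CPM in the others. Without LOC401312 replicates 2 and 3 together, TIMP3 was the 1 member that passed and CTSB the 1 related gene.

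Matrix metalloproteinases are zinc endopeptidases that are made as inactive precursors and together cut collagens and most other matrix proteins. TIMPs bind the active site of these enzymes and block it, and a complex of MMP14, a membrane-anchored enzyme, with TIMP2 is the platform on which the precursor of MMP2 is activated at the cell surface. TIMP3 differs from the other inhibitors in that it stays bound to the matrix and also blocks ADAM and ADAMTS enzymes. Only RNA was measured, and in bulk cells fewer cells expressing a gene and less RNA per cell cannot be told apart.

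Of the 10 genes, 4 passed the test: TIMP3 and MMP14 fell and ADAM12 and FAP rose, 40.0% of the set against 8.72% of all features tested. The other 6, among them the abundant members TIMP1, TIMP2, MMP2 and MMP15, did not pass. The median log2 change over the 10 was 0.07, against 0.00 over all features, since rises and falls were balanced. The median size of the change, regardless of direction, was 0.64 on the log2 scale, against 0.16 over all features. The members were chosen with earlier results of these data known, so these contrasts do not test the family.

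Promoter sequences of 5 of the 10 genes were found in RefSeq (GRCh38.p14). The 250 bases before the start annotated in RefSeq are shown for the 3 of these that passed the test, because they are the genes whose RNA moved. Capitals mark GC boxes, GGGCGG or its complement CCGCCC, the binding motif of SP1-type factors, read 5′ to 3′ on the strand of the gene. The windows lie at chr22:32801455-32801704 (plus strand) for TIMP3, chr14:22836335-22836584 (plus strand) for MMP14 and chr10:126388478-126388727 (minus strand) for ADAM12. For TIMP3 the RefSeq start is that of the counted entry. The MMP14 window runs into its counted entry, which starts at 22836560. The ADAM12 window stops short of its counted entry, which starts at 126388455 on the minus strand.
TIMP3: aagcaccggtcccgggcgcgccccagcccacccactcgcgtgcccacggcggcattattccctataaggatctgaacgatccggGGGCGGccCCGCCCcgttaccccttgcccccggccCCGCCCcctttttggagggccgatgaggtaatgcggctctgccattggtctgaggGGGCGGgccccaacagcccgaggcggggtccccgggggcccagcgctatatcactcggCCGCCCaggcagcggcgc
MMP14: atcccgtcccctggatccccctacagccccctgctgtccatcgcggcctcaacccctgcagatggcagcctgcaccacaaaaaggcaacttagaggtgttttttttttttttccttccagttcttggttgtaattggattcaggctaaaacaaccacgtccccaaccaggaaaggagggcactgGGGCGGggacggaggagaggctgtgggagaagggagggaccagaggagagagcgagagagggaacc
ADAM12: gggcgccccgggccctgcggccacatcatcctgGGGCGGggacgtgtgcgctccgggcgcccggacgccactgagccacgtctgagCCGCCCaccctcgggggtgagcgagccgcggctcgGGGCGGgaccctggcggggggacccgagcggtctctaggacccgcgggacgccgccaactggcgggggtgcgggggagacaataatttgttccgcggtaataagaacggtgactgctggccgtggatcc
The TIMP3 window held 5 GC boxes and 26 CpG dinucleotides with 72.4% G and C, and the ADAM12 window 3 GC boxes and 31 CpG with 73.6%. The MMP14 window held 1 GC box and 7 CpG with 56.8%. Over the 35116 RefSeq promoters of this length, the medians were 11 CpG and 58.0% G and C, and 42.6% held a GC box on either strand. The AP-1 motif, TGAGTCA or TGACTCA, a known element of inducible protease genes, was in none of the 3 windows and in 4.2% of all promoters. The windows of TIMP3, which fell, and ADAM12, which rose, were similar in composition to that of MMP15, which did not pass (5 GC boxes, 31 CpG, 74.8%). The window of TIMP1, which did not pass either, held 2 GC boxes and 12 CpG with 64.8%, and that of MMP14 fewer CpG and less G and C than any of these.

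Levels per gene length, as deposited FPKM, spanned more than 3 orders on the log10 scale. In vector libraries TIMP1 was highest at 55.7 ± 0.881 FPKM, followed by TIMP2 at 45.5 ± 2.24, MMP15 at 6.53 ± 0.254 and MMP2 at 5.34 ± 0.348 (SD, n = 3 each), with no overlap between neighbours. MMP14 (0.887 ± 0.1), TIMP3 (0.873 ± 0.0252) and ADAM12 (0.837 ± 0.0945 FPKM) followed at levels that overlapped. MMP1 (0.270 ± 0.0361) and ADAMTS1 (0.193 ± 0.0907) overlapped each other, and FAP was last at 0.0267 ± 0.0153 FPKM. The order of the first 4 was the same in LOC401312, again without overlap. Below them the order changed, with ADAM12 at 1.60 ± 0.193 FPKM above MMP14 at 0.497 ± 0.0208 and MMP1 at 0.210 ± 0.0854. ADAMTS1 (0.123 ± 0.0231), FAP (0.123 ± 0.0321) and TIMP3 (0.0967 ± 0.0493 FPKM) closed the order, each overlapping its neighbour. TIMP3 thus moved from a level shared with MMP14 and ADAM12 to the last place of the set. Deposited FPKM values were shifted upward in LOC401312, with a median log2 difference of 0.109 over 6136 features averaging 5 FPKM or more, against -0.02 in the counts, so FPKM is used here for the order within a group and for ratios within a library, and changes between groups are taken from counts.

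**Figure D1:**
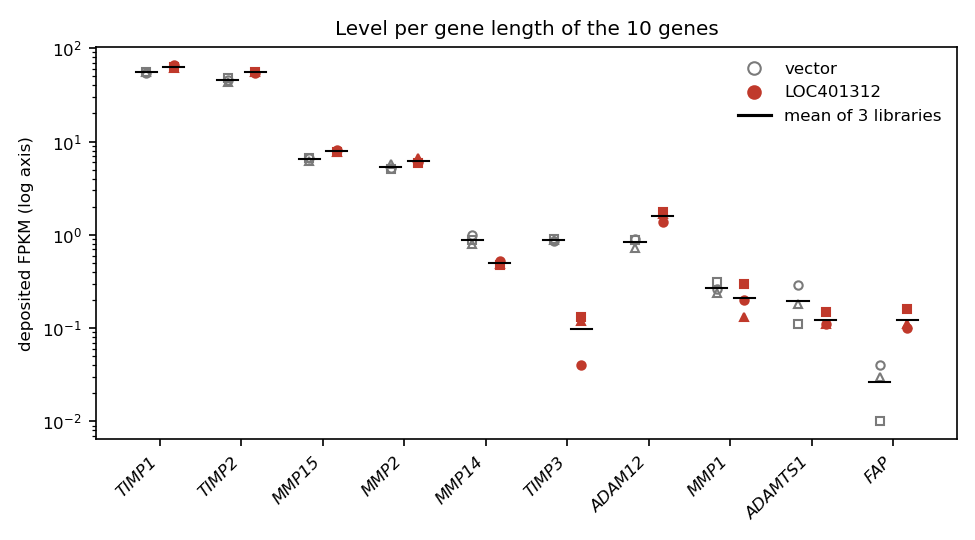
Deposited FPKM (log axis) of each of the 10 genes in the 3 vector libraries (open grey) and the 3 LOC401312 libraries (red), with marker shapes for replicates 1, 2 and 3 and black lines for the means. TIMP1 and TIMP2 stand above all other members in both groups. TIMP3 lies beside MMP14 and ADAM12 in vector (0.873 FPKM) and has the lowest mean of the set in LOC401312 (0.0967 FPKM).

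TIMP3 (ENSG00000100234; chromosome 22, 32801705 to 32863041 in GRCh38, plus strand, protein-coding) is the matrix-bound inhibitor. Vector libraries held 347, 316 and 315 TIMP3 counts, and LOC401312 libraries 17, 49 and 44. Every LOC401312 library lay far below every vector library, and replicate 1 was the lowest. Scaled, this was 5.03 ± 0.317 CPM against 0.539 ± 0.26 CPM (SD, n = 3 each), a 9.31-fold lower level. The log2 change was -3.22 (SE 0.34, edgeR quasi-likelihood test, adjusted p = 0.000374), and only 22 of the 899 features called lower fell further. TIMP3 lies within the span of SYN3, a synapsin gene on the opposite strand, which had 0 counts in all 6 libraries. With LOC401312 replicate 1 as the 1 library of its group, with the summed placental markers other than PAPPA at the vector level, the log2 change was -4.37. TIMP3 passed in each of the 18 other settings tried, with adjusted p from 2.49e-24 to 0.00676.

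TIMP1 and TIMP2, the soluble inhibitors, did not pass. TIMP1 (chromosome X, 47582408 to 47586789, plus strand) measured 94.2, 104 and 104 CPM in vector and 108, 104 and 101 CPM in LOC401312, and the groups overlapped. Its log2 change was 0.05 (SE 0.05, adjusted p = 0.611). TIMP2 (chromosome 17, 78852977 to 78922401, minus strand), which also takes part in MMP2 activation, measured 308, 341 and 310 CPM in vector and 346, 363 and 362 CPM in LOC401312. The 3 LOC401312 values were all higher than the vector values, by a log2 change of 0.16 (SE 0.05), and the adjusted p was 0.064. TIMP2 passed without vector replicate 2 (adjusted p = 0.0213), with total-count scaling (0.0259) and with DESeq2 (0.00545), within a range of 0.00545 to 0.593 over the settings. Non-overlap of the groups, as for TIMP2, was seen in 27.9% of all features tested. TIMP3 made up 0.856% ± 0.0164 of the summed FPKM of the 3 inhibitors in vector and 0.082% ± 0.0425 in LOC401312 (SD, n = 3 each), so the fall of TIMP3 was small against the total of TIMP transcripts.

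Of the metalloproteinases, MMP14 fell. MMP14 (ENSG00000157227; chromosome 14, 22836560 to 22849027, plus strand, protein-coding) had vector counts of 391, 300 and 279 and LOC401312 counts of 187, 171 and 170. The 3 LOC401312 libraries lay close together and below all vector libraries. Its level was 4.94 ± 0.371 CPM against 2.57 ± 0.0748 CPM (SD, n = 3 each), 1.92-fold lower, with a log2 change of -0.94 (SE 0.15, adjusted p = 0.00389 by edgeR). Leaving out any 1 library kept the call, with adjusted p of 0.0122 to 0.0241. With LOC401312 replicate 1 alone the change was -0.90 (SE 0.24) and did not pass (adjusted p = 0.188, the highest of the 18 settings, which went down to 1.08e-05).

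MMP15 (chromosome 16, 58025754 to 58046901, plus strand), another membrane-anchored enzyme, did not follow MMP14. It measured 33.5, 36.2 and 33.7 CPM in vector and 38.7, 37.4 and 37.8 CPM in LOC401312, without overlap, as in 27.9% of all features tested. Its log2 change was 0.14 (SE 0.05, adjusted p = 0.156). MMP2, gelatinase A (chromosome 16, 55389700 to 55506239, plus strand), measured 29.2, 30.5 and 34.5 CPM in vector and 32.1, 32.1 and 36.1 CPM in LOC401312. These groups overlapped, and the log2 change was 0.09 (SE 0.08, adjusted p = 0.562). With limma on log2(FPKM + 0.1), values that carry the shift of 0.109, MMP15, TIMP1 and TIMP2 passed, at 0.26, 0.18 and 0.29 (adjusted p = 0.0267, 0.0405 and 0.0106). MMP1, interstitial collagenase (chromosome 11, 102789919 to 102798160, minus strand), was low, with vector counts of 46, 47 and 37 and LOC401312 counts of 31, 47 and 20. Its log2 change of -0.49 (SE 0.41, adjusted p = 0.558) did not pass, and the groups overlapped. The WTAPP1 entry on the opposite strand across MMP1 held 25 counts in vector and 21 in LOC401312, against 130 and 98 for MMP1, and no source used here gives the strand setting of the counting.

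**Figure D2:**
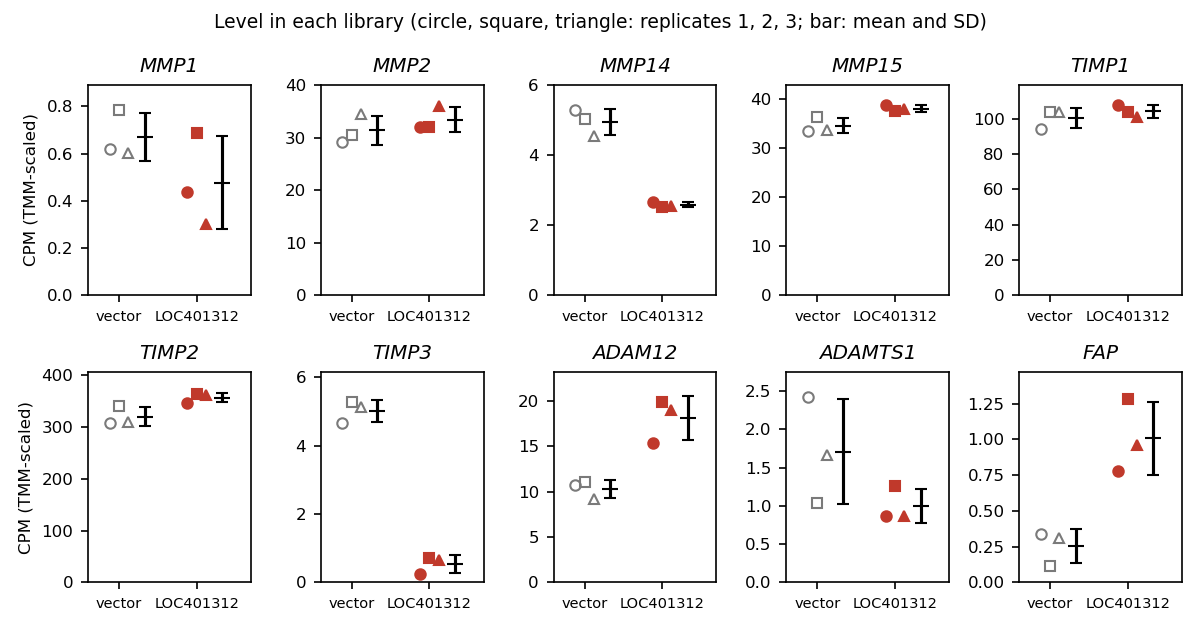
TMM-scaled CPM of each gene in each library, with axes starting at 0, vector in open grey and LOC401312 in red, circles, squares and triangles for replicates 1, 2 and 3, and bars for the mean and SD of 3 libraries. The groups do not overlap for MMP14, MMP15, TIMP2, TIMP3, ADAM12 and FAP, as in 27.9% of all features tested. They overlap for MMP1, MMP2, TIMP1 and ADAMTS1.

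The ratios within each library showed how these genes changed against each other. The summed FPKM of the 4 metalloproteinases over that of the 3 inhibitors was 0.129, 0.124 and 0.130 in vector and 0.123, 0.122 and 0.129 in LOC401312. These values overlapped, and the mean log2 difference was -0.04, about the SD of 0.04 within groups, because TIMP1, TIMP2, MMP2 and MMP15 supply most of both sums. Single pairs moved far more. MMP2 over MMP14 was 6.10 ± 1.05 in vector and 12.6 ± 0.961 in LOC401312, and MMP14 over TIMP2 was 0.0195 ± 0.00182 and 0.00896 ± 0.000497 (SD, n = 3 each). The ratio of ADAM12 to TIMP3, an inhibitor able to block it, was 1.07, 0.967 and 0.839 in vector and 34.5, 13.5 and 13.8 in LOC401312. Replicate 1 had the highest ratio because its TIMP3 value was the lowest. No test was made of these ratios, since the members were chosen with results known.

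ADAM12 rose. ADAM12 (ENSG00000148848; chromosome 10, 126012381 to 126388455, minus strand, protein-coding) encodes a metalloproteinase with membrane-bound and secreted forms that cuts IGF-binding proteins and EGF-family precursors and is abundant in placenta. Its vector counts were 791, 658 and 564 and its LOC401312 counts 1079, 1357 and 1265. All LOC401312 libraries were above all vector libraries, and replicate 1 was the lowest of the 3. Its level was 10.3 ± 0.974 CPM against 18.0 ± 2.43 CPM (SD, n = 3 each), 1.76-fold higher, with a log2 change of 0.81 (SE 0.12, edgeR adjusted p = 0.00243). Placental markers were measured beside ADAM12. Of 9 tested of the 13 listed, 8 rose and none fell, and the summed level of the 13 was 452 to 472 CPM in vector and 542 to 655 CPM in LOC401312, most of it PAPPA. GCM1 had no counts in any library but LOC401312 replicate 3, and HLA-G none outside replicates 2 and 3. In replicate 1, where the 12 markers other than PAPPA were at 1.93 CPM, within the 1.08 to 2.21 CPM of the vector libraries, ADAM12 was at 15.3 CPM, above the 9.17 to 11.0 CPM of vector. With that library alone in its group the log2 change was 0.58 (SE 0.16) and did not pass (adjusted p = 0.183, the highest of 18 settings, whose lowest was 3.59e-09). Leaving out any 1 library kept the call (adjusted p 0.00235 to 0.0174). The part of the placental markers in the rise of ADAM12 was not tested.

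FAP rose from a very low level, and its call was the least stable of the 4. FAP, fibroblast activation protein (ENSG00000078098; chromosome 2, 162170684 to 162245151, minus strand), is a membrane-bound serine peptidase that cuts after proline and is typical of activated stromal cells. The vector counts were 25, 7 and 19 and the LOC401312 counts 55, 87 and 64, so the groups did not overlap but rested on few reads. In CPM this was 0.254 ± 0.12 against 1.0 ± 0.251 (SD, n = 3 each), 3.9-fold higher, with a log2 change of 1.96 (SE 0.45, edgeR adjusted p = 0.0249). Leaving out any library other than vector replicate 1 ended the call. The adjusted p was 0.0512, 0.118 and 0.0784 without LOC401312 replicates 1, 2 and 3, and 0.058 and 0.0635 without vector replicates 2 and 3. With LOC401312 replicate 1 alone in its group the log2 change was 1.61 (adjusted p = 0.449). FAP passed in 7 of 17 other settings, with adjusted p from 0.00176 to that value. The genes of chromosome 2 had a median log2 change of -0.23 (780 genes averaging 4 CPM or more), and with chromosome medians removed FAP stood at 2.19 (adjusted p = 0.0193). The placental markers other than PAPPA summed to 1.93 CPM in LOC401312 replicate 1, within the 1.08 to 2.21 CPM of vector. FAP was at 0.780 CPM in that library, above the 0.117 to 0.337 CPM of vector. The part of the placental markers in the rise of FAP was not tested.

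Markers of fibroblasts and stroma were measured beside FAP. Of 10 tested, COL1A1, COL1A2 and THY1 fell and none passed as higher, with none at 0 in all libraries. Their summed level was 75.0 to 112 CPM in vector, 112 CPM of it in replicate 1 and 75.0 and 85.2 CPM in replicates 2 and 3, and 53.8 to 55.5 CPM in LOC401312. COL1A1 fell by 0.95 and COL1A2 by 1.44 on the log2 scale, alongside TIMP3 and MMP14. The next genes are named after their values were seen. PDGFRB, a receptor of pericytes and fibroblasts, measured 0.458, 0.217 and 0.358 CPM in vector and 0.610, 0.703 and 0.824 CPM in LOC401312. It rested on 13 to 55 counts a library and did not pass (log2 change 1.04, adjusted p = 0.168). Its groups did not overlap, as for FAP and for 27.9% of all features tested. The matrix proteoglycan DCN measured 2.76, 0.519 and 0.959 CPM in vector and 1.06, 1.73 and 1.36 CPM in LOC401312. LUM, another, measured 4.67, 0.418 and 0.797 CPM and 1.60, 2.30 and 2.52 CPM. For both, the LOC401312 libraries were above vector replicates 2 and 3 and below vector replicate 1. The part of these markers in the results for FAP, TIMP3 and MMP14 was not tested. Urothelial and squamous markers were also lower, summing to 11.2 to 13 CPM in vector and 3.01 to 3.99 CPM in LOC401312. Of 7 tested of the 9 listed, KRT13, PSCA and ADIRF fell and none rose, and UPK3A was at 0 in all libraries but vector replicate 1. Their part in the falls of TIMP3 and MMP14 was not tested.

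ADAMTS1 (chromosome 21, 26835755 to 26845409, minus strand), a secreted enzyme that cuts proteoglycans such as versican and aggrecan, did not pass. Vector counts were 180, 62 and 103 and LOC401312 counts 61, 86 and 58, with overlap between groups. Its log2 change was -0.78 (SE 0.34, adjusted p = 0.204). Vector replicate 1, the highest at 2.42 CPM, is the library with the stromal transcripts, and without it the log2 change was -0.44 (adjusted p = 0.499, within 0.0987 to 0.507 over the settings).

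**Figure D3:**
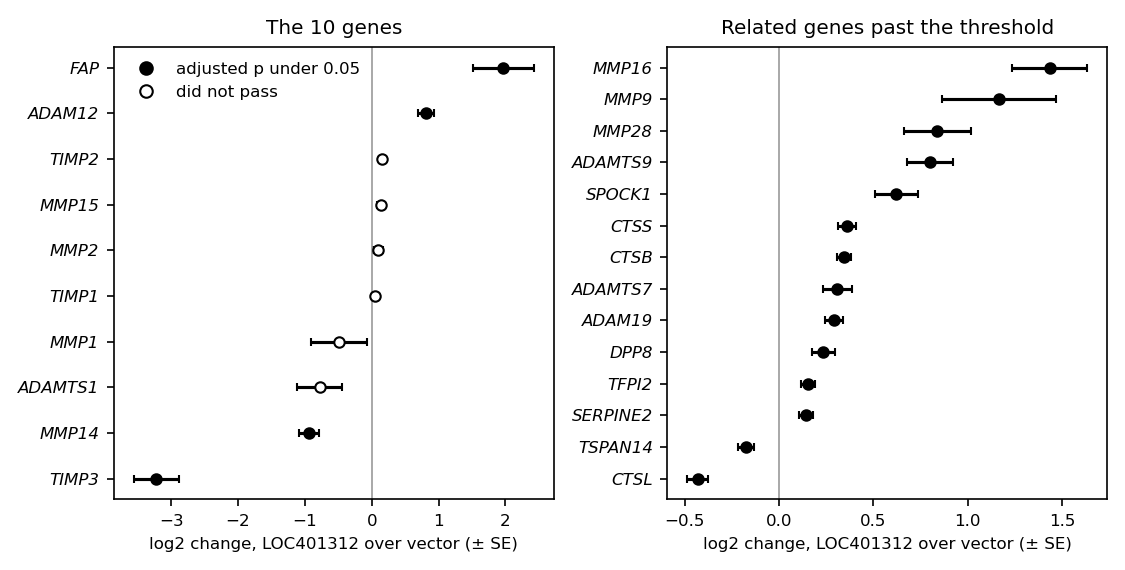
Log2 change of LOC401312 over vector with SE from edgeR, for the 10 genes (left) and for the related protease and inhibitor genes that passed (right), with filled points for an adjusted p under 0.05. TIMP3 lies at -3.22 and FAP at 1.96, and all but TSPAN14 and CTSL of the related genes shown lie above 0.

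Genes related to the 10 were taken from 8 lists drawn up by family membership or function, and some lists hold only part of a family. The lists were chosen with earlier results of these data known, so the shares given here and below do not test the families. Of 84 genes listed, 81 were found and 65 had enough counts to be tested, and 12 rose and 2 fell, 21.5% of those tested against 8.72% of all features. Their median log2 change was 0.10. Among 13 tested matrix metalloproteinases other than the members, 3 rose and none fell. MMP16, a membrane-anchored relative of MMP14, had vector counts of 111, 99 and 77 and LOC401312 counts of 267, 244 and 303, opposite in direction to MMP14. It rose by 1.43 on the log2 scale (SE 0.20, edgeR adjusted p = 0.00185). MMP28, epilysin, rose by 0.84 (adjusted p = 0.0169) and MMP9, gelatinase B, by 1.17 (adjusted p = 0.0404), the latter named because it completes the 3. All 3 were low. Within vector libraries MMP16, MMP28 and MMP9 averaged 0.0967, 0.667 and 0.34 FPKM, with MMP14 at 0.887. Within LOC401312 libraries they averaged 0.283, 1.3 and 0.837 FPKM, with MMP14 at 0.497. The MMP9 call was lost on leaving out any library other than vector replicate 3 (up to 0.159), and MMP28 without any 1 of vector replicate 2 and LOC401312 replicates 2 and 3 (up to 0.0822).

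Among 5 other inhibitors, SPOCK1, a testican proteoglycan, rose by 0.62 (SE 0.12, adjusted p = 0.00855) and TFPI2, a serine protease inhibitor of the matrix, by 0.15 (SE 0.04, adjusted p = 0.0337). None fell, and TIMP4 had a log2 change of 0.08 (adjusted p = 0.603), so TIMP3 was the 1 TIMP that passed in the edgeR fit. Of 7 ADAM proteases ADAM19 rose by 0.29 (adjusted p = 0.00438), and of 13 ADAMTS proteases ADAMTS9 rose by 0.80 (adjusted p = 0.00296) and ADAMTS7 by 0.31 (adjusted p = 0.0344). Of 5 prolyl peptidases of the FAP family, DPP8, a cytosolic enzyme, rose by 0.24 (adjusted p = 0.0386). Without 1 library calls were lost for SPOCK1 (LOC401312 replicate 2, 0.053), TFPI2 (any but vector or LOC401312 replicate 1, up to 0.152), ADAMTS7 (any, up to 0.135) and DPP8 (any but vector replicate 1, up to 0.144). With LOC401312 replicate 1 alone in its group, MMP16 (adjusted p = 0.102), ADAMTS9 (0.109), ADAM19 (0.181), SPOCK1 (0.315), MMP9 (0.366), ADAMTS7 (0.373), MMP28 (0.401), DPP8 (0.463) and TFPI2 (0.556) did not pass.

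In the plasminogen system, which activates metalloproteinase precursors, 1 of 6 genes tested passed, 16.7% against 8.72% of all features. SERPINE2, protease nexin 1, rose by 0.14 (SE 0.04, adjusted p = 0.0447), a call lost on leaving out any library other than vector replicate 1 (up to 0.18). With LOC401312 replicate 1 alone in its group the log2 change was 0.12. SERPINE2 lies on chromosome 2, where the median log2 change was -0.23. With chromosome medians removed it stood at 0.37 (adjusted p = 0.000259 by edgeR). The protease PLAU and its receptor PLAUR did not pass. PLAU was abundant, at 189 ± 7.35 CPM in vector and 184 ± 4.24 CPM in LOC401312 (SD, n = 3 each), with a log2 change of -0.04 (adjusted p = 0.672 by edgeR). SERPINF2, the plasmin inhibitor, and PLAT, tissue plasminogen activator, are named after their values were seen. Neither passed, with log2 changes of 0.49 (adjusted p = 0.133) and -0.29 (adjusted p = 0.181). Their groups did not overlap, as in 27.9% of all features tested. Of 7 activators and inducers, TSPAN14, a tetraspanin that accompanies ADAM10, fell by 0.17 (SE 0.04, adjusted p = 0.0319), a call also lost on leaving out any library other than vector replicate 1 (up to 0.135) and with LOC401312 replicate 1 alone in its group (0.485), and FURIN and BSG did not pass. The lysosomal cathepsins CTSL, CTSD and CTSB, which can also cut matrix, were the most abundant proteases of these lists. Of 9 cathepsins and cystatins tested, CTSB rose by 0.34 (SE 0.04, adjusted p = 0.000377) and CTSS by 0.36 (SE 0.05, adjusted p = 0.0013), and CTSL fell by 0.43 (SE 0.06, adjusted p = 0.00123). CTSL stood at 1040 ± 81 CPM in vector and 771 ± 29.9 CPM in LOC401312, and CTSB at 1230 ± 45.1 and 1560 ± 30.4 CPM (SD, n = 3 each). With LOC401312 replicate 1 alone in its group CTSB passed (adjusted p = 0.0442), and CTSL (0.118) and CTSS (0.117) did not. The 6 endothelial and blood markers, among them PTPRC, summed to 45.2 to 49.8 CPM in vector and 54.7 to 62 CPM in LOC401312. Of 5 tested, CD68, a lysosomal protein of macrophages that other cells also make, rose (33.2 ± 2.03 and 44.0 ± 3.07 CPM, SD, n = 3 each, edgeR adjusted p = 0.00525), and none fell. Their part in the rises of CTSB and CTSS was not tested. MMP7, matrilysin, was the most abundant matrix metalloproteinase of the related lists at 28.0 and 27.6 FPKM, above every MMP among the 10 genes, and did not pass (adjusted p = 0.129).

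The features most like TIMP3 and ADAM12, the members with the smallest p, were sought among features averaging 1 FPKM or more, by Pearson's r of log2 CPM over the 6 libraries. For TIMP3 these were ZDHHC13 (r = 0.9987), CNOT11 (0.9973) and the mitochondrial ribosomal RNA MT-RNR2 (0.9965), whose own log2 changes were -0.23, -0.31 and -0.20. For ADAM12 they were ARNTL2 (0.9971), H4C9 (0.9946) and LRATD2 (0.9937), with log2 changes of 0.37, 0.28 and 0.43. The 6 points share the difference between the 2 groups, so r says little beyond it. The 3 features like TIMP3 changed far less than its log2 change of -3.22. The 3 like ADAM12 changed less than its 0.81.

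**Figure D4:**
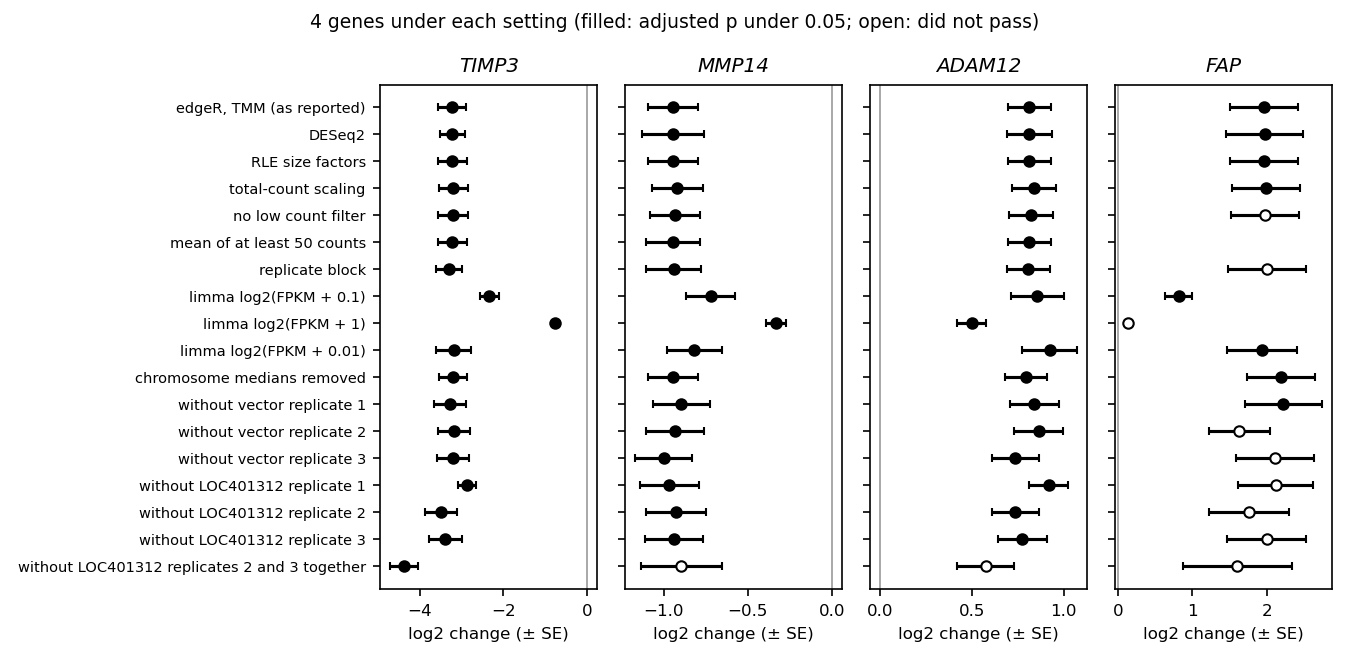
Log2 change with SE of TIMP3, MMP14, ADAM12 and FAP under each setting tried, with filled points for an adjusted p under 0.05 and open points for those that did not pass. TIMP3 is filled throughout, MMP14 and ADAM12 are open only with LOC401312 replicate 1 alone in its group, and FAP is open in most settings that leave out a library.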

How the data were processed

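A549 total RNA was sequenced from 3 vector and 3 LOC401312 libraries, grouped by title. The authors deposited raw counts per gene, whole numbers with 1 column per library, and FPKM scaled for length and library total, per the file headers. The definition of FPKM length and total, the aligner, the counter, the annotation and the strand mode were not given in the sources used here. The tools named are cutadapt 1.9 and FastQC, with build GRCh38, per the submitters' processing notes.

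The counts were tested with edgeR 4.0.16 (R 4.3.3): quasi-likelihood test, TMM scaling, filterByExpr, no covariate, Benjamini-Hochberg adjustment over all 19620 features tested, threshold 0.05. Adjusted p-values are from this fit unless another tool is named. SE was derived from the log2 change and the F statistic. In data simulated for this comparison (19103 features tested), 84% of genes changed by 1 and 98% changed by 2 on the log2 scale were recovered, and 10.8% of calls were false. The changed genes were drawn from features averaging more than 1 CPM. FAP and MMP1 lay below that level, so the recovery rates do not cover them. Replicate pairs differed beyond sampling noise, with a chi-square of 13.68 to 22.86 for each degree of freedom, so each library counted as 1. An exact permutation test of 3 against 3 has 20 arrangements and cannot go below p = 0.1, so none is given per gene.

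The members and lists were chosen with earlier results of these data known. Genes named are the 10 members, up to 12 related genes past the threshold with the smallest p, related genes averaging 10 FPKM or more, and the 3 features most like each of 2 members. Not every gene this rule gives is described. Other settings were DESeq2 1.42.0, RLE and total-count scaling, no filter or a mean of at least 50 counts, a replicate block, limma 3.58.1 on log2(FPKM + 0.1), with 1 or 0.01 in place of 0.1, removal of chromosome medians, each library left out, LOC401312 replicates 2 and 3 left out together, and a threshold of 0.01. With 1 library left in a group, it is assumed to vary like the other group.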

Additional observations from a re-analysis of the deposited data

How the results depend on the processing

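TIMP3 kept its direction and its call in all 18 other settings, MMP14 and ADAM12 in 17 of 18, and FAP its direction in 17 and its call in 7. No member changed direction in any setting. Counts are given as higher and lower in LOC401312, against 2 and 2 members, 811 and 899 features and 12 and 2 related genes as reported. Members higher numbered 1 without a low count filter (FAP at adjusted p = 0.0557), with the filter at a mean of 50 counts, where FAP and MMP1 were not tested, with the replicate block (FAP at 0.0762) and at a threshold of 0.01. With limma on log2(FPKM + 0.1), log2(FPKM + 1) and log2(FPKM + 0.01) they numbered 5, 4 and 5, because MMP15, TIMP1 and TIMP2 passed in those values, which carry the shift of 0.109; FAP did not pass with a pseudocount of 1 (0.0525). All features came to 1639 and 308, 1625 and 305, and 1591 and 301 in these fits, with 1 related gene lower in each. DESeq2 called 1248 and 1303 features, total-count scaling 999 and 754, and removal of chromosome medians 682 and 514. Related genes numbered 9 and 2 with chromosome medians removed, where MMP9 (adjusted p = 0.0543), ADAMTS7 (0.054) and DPP8 (0.0553) did not pass. Without a filter there were 586 and 577 features and 8 and 1 related genes. MMP9, TFPI2, DPP8, SERPINE2 and TSPAN14 did not pass in that setting. At 0.01 there were 333 and 405 features and 6 and 1 related genes. Without LOC401312 replicates 2 and 3 together there were 0 and 1 members, 84 and 91 features and 1 and 0 related genes.

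Leaving out each library in turn gave 1 to 2 members higher and 2 lower in each case, 393 to 963 features higher and 439 to 1042 lower, and 5 to 10 related genes higher and 1 to 4 lower. Counts of all features moved over 1.5 times without vector replicate 3, to 421 and 493, without LOC401312 replicate 1, to 472 and 546, without replicate 2, to 393 and 439, and without replicate 3, to 429 and 530. Without vector replicate 2 those lower were 580. The log2 difference of the protease to inhibitor ratio was -0.061 to -0.019 in these, and -0.061 from CPM.

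Same-numbered libraries did not deviate together from their group means (r = -0.154, -0.032 and -0.057 over 11799 genes), and no library correlated best with its own number. With the replicate block there were 1 and 2 members, 509 and 579 features, and 8 and 1 related genes. FAP rested on 7 to 87 counts a library.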
